A study of Mus musculus with 16 samples.

Results

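Translational efficiency (TE) was compared between leukaemic mouse T cells grown without dietary valine and the same kind of cells grown with any valine. TE is the footprint signal of a gene over its mRNA signal: log2 of the footprint level plus 0.5 minus log2 of the total RNA level plus 0.5, both in FPKM, read counts divided by the length of the gene and the size of the library. It was formed within each of the 8 pairs of a ribosome footprint library and a total RNA library that share a diet and a T-ALL number, which uses all 16 samples of the series. Of 12012 genes in the table, 3028 passed both filters, a mean of at least 20 FPKM over the 8 footprint libraries and of at least 5 FPKM over the 8 total RNA libraries. The comparison sets 2 pairs without valine against 6 pairs with valine.

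All mice were C57BL/6 recipients of a secondary transplant of T-ALL, an acute leukaemia of T cell precursors, which was driven by NOTCH-delta E, a form of the Notch receptor that signals without its ligand. They spent 3 weeks on 1 of 4 diets, with 0, 0.4, 0.8 or 8 g/kg valine, the last being the control diet. The labels state the doses per kg of diet in one field and place the 0.4 and 0.8 doses in drinking water in another. Leukaemic cells were sorted from spleen by GFP, and each diet has a T-ALL 2 and a T-ALL 3 sample in each fraction. What the numbers 2 and 3 stand for is not stated, so the p-values measure the spread between these samples, which may be technical.

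Valine is an essential branched-chain amino acid. Valyl-tRNA synthetase, encoded by Vars, loads it onto its tRNA, and when a charged tRNA runs short, ribosomes can slow at the codons it reads. The kinase GCN2 senses uncharged tRNA and lowers translation initiation in general while it favours the mRNA of the transcription factor ATF4, and mTORC1 senses amino acids and drives translation of ribosomal protein mRNAs. The series names mitochondrial complex I in its title; this is the first enzyme of the respiratory chain, and its subunits come partly from the nucleus and partly from mitochondrial DNA.

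Footprint libraries held 41848 to 205545 recovered reads, with 80367 and 79154 in those without valine, and total RNA libraries held 364685 to 1269364. A tested gene had a median of 11 footprint reads in each library without valine and of 6 to 28 in those with valine. Both fractions are scaled to library size, so a shift in translation shared by all genes cannot be seen in TE. T cell receptor and coreceptor genes gave 63.2 and 63.3 of every 10000 footprint reads without valine and 56.2 to 73.5 with valine, so the markers of the labelled cell type were present. Neutrophil markers (11 genes, S100a8 and S100a9 among them) gave 27.6 and 3.41 of every 10000 footprint reads without valine and 0.239 to 1.20 with it, and in total RNA 2.22 to 4.72 against 0.110 to 0.723. Erythroid markers (10 of 11 in the table, with Hbb-bt at 0 in all footprint libraries) gave 0.498 to 2.78 of every 10000 footprint reads without valine and 2.52 to 17.4 with it. In bulk RNA, fewer cells of a type and less RNA per cell cannot be told apart.

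No gene passed the test for TE. Over 3028 genes, limma with Benjamini-Hochberg adjustment at 0.05 called 0.0% in either direction, and the lowest adjusted p was 0.292, for Mrpl27. With the T-ALL 2 pair at 0 g/kg left out, 1 gene was called higher and 14 lower, and with the T-ALL 3 pair at 0 g/kg left out, 0 and 14. Only Mrpl27 was in both sets, 27 of the 28 genes had 0 footprint reads in at least 1 of the libraries without valine, and in these fits the lone pair is assumed to vary like the others. At an unadjusted p under 0.05 there were 37 genes with a higher TE without valine (1.22%) and 108 with a lower TE (3.57%), 145 in all, where 151.4 would be below that limit by chance. Both pairs without valine lay above all 6 others for 90 genes (2.97%) and below all 6 for 119 genes (3.93%). The median difference was -0.0041 on the log2 scale, with quartiles of -0.36 and 0.34, and the median standard error of a gene was 0.50. The footprint libraries alone also gave no called gene (0.0% in either direction, 36 higher and 136 lower at an unadjusted p under 0.05, lowest adjusted p 0.101). Total RNA gave 5 genes called higher (0.165%) and 25 called lower (0.826%) of the same 3028.

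**Figure D1:**
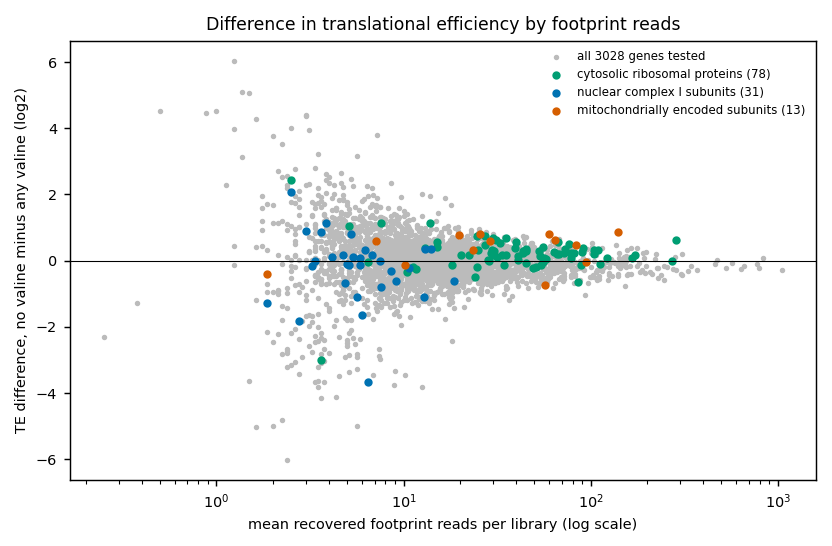
TE difference without valine minus with any valine (log2) of each of 3028 genes against its mean recovered footprint reads per library (log scale), with cytosolic ribosomal proteins, nuclear complex I subunits and mitochondrially encoded subunits in colour. The spread narrows as reads rise: 49.2% of genes under 5 reads and 0.317% of genes with at least 50 reads differ by 1 or more in either direction.

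The 13 subunits encoded by mitochondrial DNA, which mitochondrial ribosomes translate, had the highest median TE difference among the lists with at least 10 tested members. Their median TE difference was 0.58, against -0.0041 over all genes, with a median difference of 0.67 in footprints and 0.15 in total RNA. TE was higher without valine for 9 of 13. Both pairs without valine lay above all 6 others for 4 (30.8%, against 2.97% of all genes tested), mt-Co1, mt-Nd1, mt-Co2 and mt-Nd4. None of the 13 passed the test over all genes. The median TE of the 13 was -1.96 and -2.47 in the pairs without valine and -3.27 to -2.56 in those with valine. The groups do not overlap on this median, although single genes do. They also overlap on reads pooled over the 13 genes. Of every 10000 footprint reads, the 13 genes gave 111 (T-ALL 2) and 71.4 (T-ALL 3) without valine. The T-ALL 3 library at 0.4 g/kg gave 82.4, and the others with valine gave less than 71.4. The total RNA shares were 342.2 and 302.2 without valine and 309.3 in the T-ALL 3 library at 0.4 g/kg. Relative to RNA, only the T-ALL 2 pair without valine thus stood above all pairs with valine.

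mt-Co1 encodes the catalytic core of complex IV, cytochrome c oxidase. Its footprint level was 1609.5 and 1102.5 FPKM without valine, and with valine the lowest, median and highest were 521.5, 756.2 and 1058.7 FPKM. Its total RNA level was 6584.8 and 5882.0 FPKM without valine and 6247.0 to 6863.2 FPKM with valine. The footprint levels without valine were above all others while 1 of the RNA levels lay within the range of the others and 1 below it. The TE values were -2.03 and -2.42 without valine, and with valine they were -3.17 and -2.61 at 0.4 g/kg, -3.58 and -3.10 at 0.8 g/kg, and -3.22 and -2.90 at 8 g/kg. The difference was 0.87 (SE 0.26, 95% interval 0.30 to 1.45, unadjusted p 0.00699, limma adjusted p 0.993). Counted as reads, 378 footprints were seen without valine and 745 with valine, and footprints relative to the number expected from the gene's share of total RNA were 2.03 times those with valine (95% exact binomial interval 1.79 to 2.3, which covers counting error only and not the spread between samples).

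mt-Nd1 and mt-Co2 were close to mt-Co1 in size. mt-Nd1, a membrane subunit of complex I, had 33 and 29 footprint reads without valine and 12 to 40 with valine, and TE values of -2.99 and -2.59 against -4.0 to -3.24. Its TE difference was 0.81 (SE 0.26, unadjusted p 0.0104, limma adjusted p 0.993). mt-Co2, which carries the copper site of complex IV that takes electrons from cytochrome c, had TE values of -2.0 and -2.48 against -3.60 to -2.70, a difference of 0.80 (SE 0.26). Both genes kept the groups apart.

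The other complex I subunits of mitochondrial DNA lay on both sides of 0. mt-Nd4 had a TE difference of 0.78 and mt-Nd2 of 0.58, while mt-Nd5, the lowest of the 13 and named for that after its value was seen, had -0.72 (SE 0.33, unadjusted p 0.0505). The mt-Nd5 values were -1.71 and -2.34 without valine and -1.90 to -0.80 with valine, so the groups overlapped. mt-Nd3 and mt-Nd6 had 2 and 21 footprint reads over both libraries without valine, and TE differences of -0.40 (SE 1.72) and -0.12. The T-ALL 3 library at 0.4 g/kg had 0 footprint reads of mt-Nd3, and without that pair its difference was -1.62; over 18 alternatives it ranged from -6.36 at equal depth to -0.028 with a pseudocount of 0.1. The sign of the difference turned under some alternatives for mt-Nd6, mt-Nd4l and mt-Atp6. Of the remaining subunits, mt-Cytb of complex III had 0.64, mt-Co3 0.48, mt-Atp8 0.60, mt-Nd4l 0.32 and mt-Atp6 -0.028. Reads of mitochondrial genes can also come from nuclear copies, which the counting may not have told apart.

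**Figure D2:**
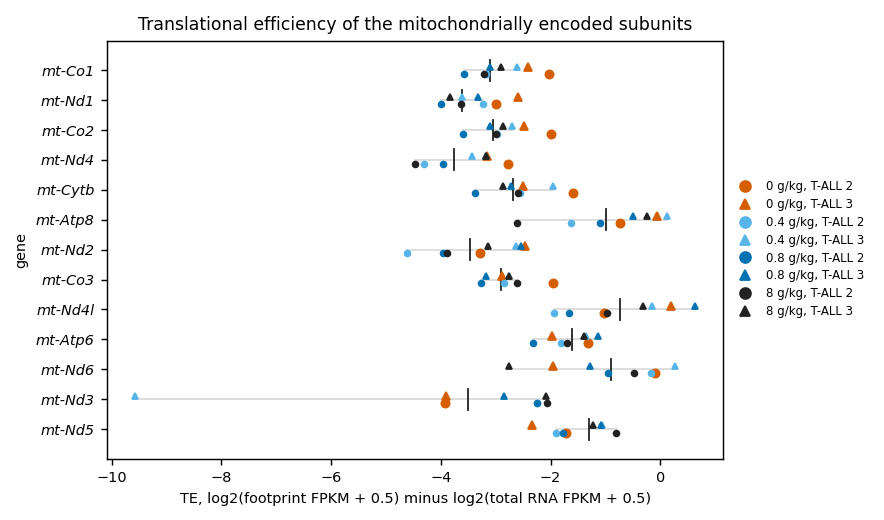
TE of each of the 13 mitochondrially encoded subunits in each of the 8 pairs; orange marks the pairs without valine, circles T-ALL 2, triangles T-ALL 3, and the black bar is the mean of the 6 pairs with valine. For mt-Co1, mt-Nd1, mt-Co2 and mt-Nd4 both orange points are right of all others; mt-Nd5 has both left of the bar.

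The TE differences of nuclear complex I subunits were spread around 0. Of 38 genes on the list, 36 are in the table and 31 passed the filters. A higher TE without valine was seen for 13 of 31 and a lower one for 18. The median difference was -0.09 in TE, -0.23 in footprints and -0.17 in total RNA, against -0.0041, -0.045 and -0.051 over all genes. None of the 31 was called. Both pairs without valine lay below all others for 2 of 31 (6.45%, against 3.93% of all genes tested), Ndufv1 among them. The median TE of the 31 was -1.0 and -0.91 without valine, -0.78 and -1.08 at 0.4 g/kg, -0.70 and -0.58 at 0.8 g/kg, and -0.41 and -0.48 at 8 g/kg. Both control pairs stood highest, and the pairs without valine and at 0.4 g/kg overlapped. Against the control diet alone the median TE difference was -0.23. The sign of the median against any valine turned in 3 of 20 alternatives, to 0.058 at most. The depth behind this list is low, with a median of 4.5 footprint reads per member and library.

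Ndufv1, the flavin-bearing subunit that takes electrons from NADH, had TE values of -0.79 and -0.87 without valine and -0.75 to 0.35 with valine, a difference of -0.61 (SE 0.32, unadjusted p 0.0796). Ndufs7 had 0 and 5 footprint reads without valine, and its fitted difference of -3.67 rests on the library at 0; the read ratio was 0.408 (exact binomial interval 0.127 to 1.02). Ndufs1, the largest subunit of the peripheral arm, had a difference of 0.37 (SE 0.57), Ndufb10 of 0.11 (SE 0.39) and Ndufb6 of -0.67 (SE 0.33). For these 3 genes the groups overlapped.

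**Figure D3:**
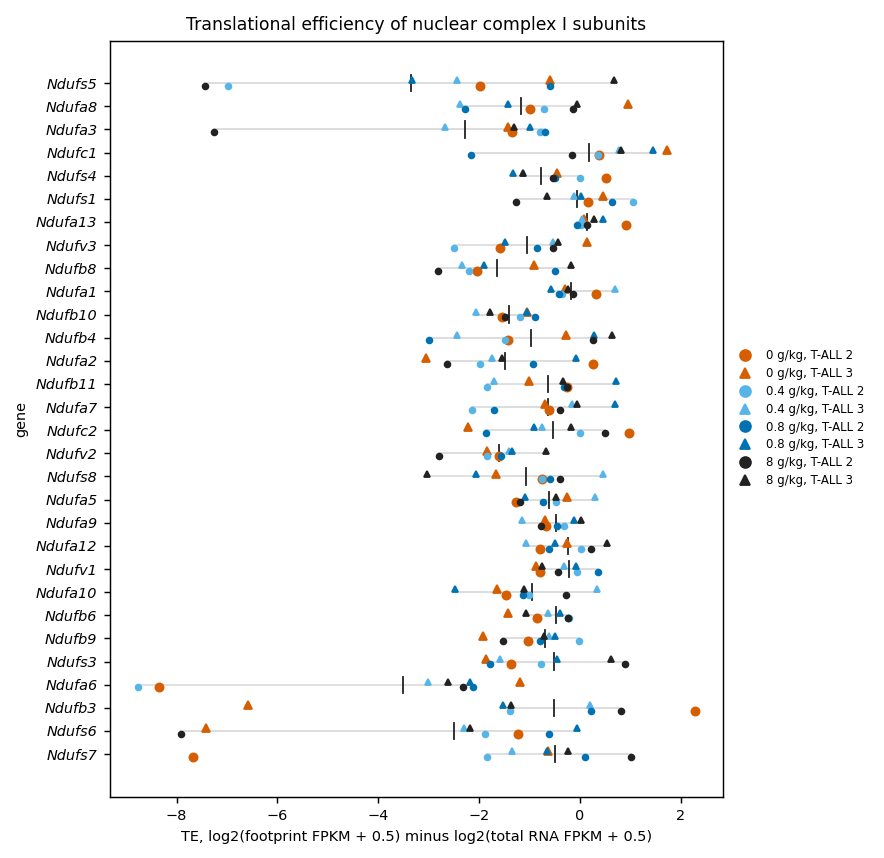
TE of 30 of the tested nuclear complex I subunits in each of the 8 pairs, sorted by the difference; symbols as for the mitochondrially encoded subunits. Both orange points lie left of all others for Ndufv1 alone of those drawn, and the far-left points of Ndufs7, Ndufs6, Ndufb3, Ndufa6, Ndufa3 and Ndufs5 come from libraries with 0 footprint reads.

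The remaining nuclear parts of the respiratory chain, 39 tested subunits of complexes II to V, had a median TE difference of -0.04, with 18 higher and 21 lower, and the sign of the median turned in 4 of 20 alternatives. Atp5o, a stalk subunit of ATP synthase, had 5 and 5 footprint reads without valine and 5 to 23 with valine, TE values of -2.32 and -1.96 against -1.59 to -0.84, and a difference of -0.86 (SE 0.29, unadjusted p 0.0124, limma adjusted p 0.993). Cox7a2l had 1 and 1 footprint reads without valine, with a read ratio of 0.303 (exact binomial interval 0.0347 to 1.23). Enzymes of the tricarboxylic acid cycle had a lower TE for 14 of 17 tested members, with a median difference of -0.19, none of them called or with groups apart. Only 9 of 17 were lower without the T-ALL 2 pair at 0 g/kg, and 8 of 17 against the control diet alone. The 35 tested proteins of the mitochondrial ribosome had a median TE difference of 0.43, with 23 higher, from a median of 3 footprint reads per member and library; against the control diet alone the median was -0.02.

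Single genes on the mitochondrial ribosome list had large fitted differences in both directions, from few reads. Mrpl27 (chr11:94653770-94661932, GRCm38) had 0 footprint reads in both libraries without valine and 6, 1, 6, 2, 2 and 2 with valine. With 3 reads set over both libraries at 0, its footprints relative to RNA would be 1.51-fold lower without valine. This value leaves out the counting error of the reads with valine and the spread between samples. The fitted difference of Mrpl27 depends on the pseudocount. Mrpl38 had 0 and 1 footprint reads against 2 to 6, a read ratio of 0.113 (exact binomial interval 0.00275 to 0.681). Mrps36 had 3 and 2 footprint reads against 0 to 3, and a TE difference of 5.07 (SE 2.54, unadjusted limma p 0.0728). Its total RNA fell by 1.66 on the log2 scale (limma adjusted p 0.0497), a call kept in 4 of 15 alternatives.

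Cytosolic ribosomal proteins, whose mRNAs are under control by mTORC1, had a median TE difference of 0.21 over 78 tested members, with 59 higher and 19 lower. Over all genes 1504 were higher and 1524 lower. The median difference was 0.07 in footprints and -0.13 in total RNA, where 76 of 78 members were lower. Over all genes these medians were -0.045 and -0.051, with 1778 of 3028 genes lower in total RNA. Both pairs without valine lay above all others for 8 members (10.3%, against 2.97% of all genes tested), and none was called in TE. The median TE of the 78 was -1.82 and -1.52 without valine and -2.33, -1.86, -1.96, -1.70, -1.59 and -1.90 with valine from the lowest dose to the highest, so the groups overlapped on this median. With the control diet alone as comparison 44 of 78 were higher, and without the T-ALL 3 pair at 0 g/kg 51 of 78.

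Rpl7a had the lowest unadjusted p of the ribosomal proteins. Its footprint level was 244.8 and 148.5 FPKM without valine and 60.6 to 145.2 FPKM with valine, and its RNA level was 536.0 and 515.4 FPKM against 555.1 to 613.9 FPKM. TE was -1.13 and -1.79 against -3.33 to -1.96, a difference of 1.13 (SE 0.39, unadjusted p 0.0157, limma adjusted p 0.993) with a read ratio of 2.15 (exact binomial interval 1.41 to 3.23). Rps23 had a difference of 0.54 (SE 0.22) and Rps25 of 0.70 (SE 0.29), both with groups apart. Members of this family have many processed copies in the genome, so single members are uncertain.

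The mRNAs of this family are known to begin with a run of pyrimidines, through which mTORC1 acts on their translation. The stretch from 15 bases before to 15 bases from the annotated start was read from the RefSeq promoter table (GRCm38.p6, gene strand) and searched for 8 or more C or T in a row on that strand. The 6 ribosomal protein genes with the lowest unadjusted p for TE among those with a window are shown, since they carry the largest differences of the family relative to their error; capitals mark such runs.
Rpl7a, chr2:26910792-26910821, plus strand: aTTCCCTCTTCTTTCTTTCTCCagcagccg
Rps23, chr13:90923107-90923136, plus strand: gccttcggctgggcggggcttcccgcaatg
Rps25, chr9:44407699-44407728, plus strand: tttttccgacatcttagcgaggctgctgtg
Rpl28, chr7:4792950-4792979, plus strand: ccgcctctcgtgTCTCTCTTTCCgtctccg
Rps10, chr17:27635230-27635259, minus strand: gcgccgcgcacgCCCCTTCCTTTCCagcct
Rps18, chr17:33955651-33955680, minus strand: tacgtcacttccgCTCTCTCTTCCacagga
Rpl28, Rps10 and Rps18 had TE differences of 0.70, 0.50 and 0.57. A run was present in 26 of 57 ribosomal protein genes with a window (45.6%), in 14.7% of the 2269 other tested genes with one and in 13.9% of all 27025 genes in the promoter table. The median TE difference of ribosomal protein genes was 0.24 with a run and 0.17 without, and that of the other tested genes was -0.0032 with a run and -0.015 without. Presence of a run thus went with family membership in these windows and separated the TE differences by little within either set. No match says only that the letters are not in this window, so whether a run bears on TE was not tested.

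The factors that carry out translation lay on both sides of 0. Of 39 tested factors, 17 were higher and 22 lower, with a median TE difference of -0.08 whose sign turned in 2 of 20 alternatives. Eef2, which moves the ribosome along the mRNA, had 393 and 500 footprint reads without valine and 299 to 1157 with valine, and a TE difference of -0.06 (95% interval -0.52 to 0.40). Eef1a1, which delivers charged tRNA, had 737 and 682 footprint reads and a difference of 0.09 (95% interval -0.46 to 0.64). Eif3i, Eif3k and Eif3a, subunits of the initiation factor eIF3, had the lowest unadjusted p of the list, each with a TE below that with valine. Eif3i (chr4:129591974-129600648) had TE values of -1.91 and -3.01 against -1.42 to -0.75, a difference of -1.32 (SE 0.37, unadjusted p 0.00486, limma adjusted p 0.922) from 12 footprint reads without valine and 128 with it. Eif3k had a difference of -1.18 (SE 0.51) and Eif3a of -0.77 (SE 0.38), with overlapping groups.

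The enzymes that load tRNAs also lay on both sides of 0. Of 19 tested cytosolic tRNA synthetases 7 were higher and 12 lower, with a median TE difference of -0.07 whose sign turned in 3 of 20 alternatives. Vars, the valine enzyme, had 67 and 125 footprint reads without valine and TE values of -0.03 and 0.98. With valine its TE values were 1.36 and 0.93 at 0.4 g/kg, 0.81 and 1.11 at 0.8 g/kg, and 0.03 and 0.98 at 8 g/kg. In both groups T-ALL 2 pairs gave the lowest value, and the difference of -0.39 (SE 0.36, 95% interval -1.20 to 0.41) was within the spread and was 0.11 without the T-ALL 2 pair at 0 g/kg. Qars, the glutamine enzyme, had TE values of -1.77 and -1.39 against -1.18 to -0.23, a difference of -0.97 (SE 0.37, unadjusted p 0.0247, limma adjusted p 0.993). Gars, the glycine enzyme, also kept the groups apart with a difference of -0.49 (SE 0.24), and Tars, the threonine enzyme, had -0.92 (SE 0.40) with overlap. Of the 19 enzymes, 2 had both pairs without valine below all others (10.5%, against 3.93% of all genes tested). A further 1 had both above all others (5.26%, against 2.97%).

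No gene of the amino acid response was called in TE. The 15 tested genes of the ATF4 list had a median difference of 0.32 in total RNA, 0.26 in footprints and 0.10 in TE, with a higher TE for 11; by voom on reads the TE median was -0.0039. Atf4 itself, whose upstream reading frames favour its translation when initiation is low, had 13 and 16 footprint reads without valine and TE values of 0.30 and -0.29, against -0.15 to 1.09 with valine. Its TE difference was -0.68 (SE 0.37, unadjusted p 0.093), with 0.45 in total RNA. Ppp1r15a, the phosphatase subunit that restores initiation, rose by 1.93 on the log2 scale in total RNA (SE 0.31, limma adjusted p 0.0198), with 32 and 19 footprint reads without valine and 0 to 9 with valine. The call was lost with the T-ALL 3 library of the valine-free diet left out (limma adjusted p 0.255), with the 4 diets as a factor, against the control diet alone and without the variance trend. Its TE difference was 1.60 (SE 1.22), not past the test. Slc7a5 and Slc3a2, which together form a transporter that brings branched-chain amino acids into the cell, had TE differences of 0.03 (SE 0.31) and 0.10 (SE 0.39). All 5 tested genes of branched-chain amino acid breakdown had a lower TE, with a median of -0.24 whose sign turned in 2 of 19 alternatives. For Bcat2, which starts that breakdown in mitochondria, TE was -0.41 and -0.38 against 0.00 to 1.20, a difference of -0.77 (SE 0.45) from 8 footprint reads without valine.

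Histone genes fell in total RNA. Of the 30 genes called in total RNA, 18 were on the histone list and all 18 fell, by 0.46 to 0.97 on the log2 scale. All 18 were still lower in each alternative that tested them, but with the T-ALL 3 library at 0 g/kg left out 4 genes were called, 2 of these 18 among them, and with the control diet alone as comparison 1 gene and none of the 18. With the T-ALL 2 library at 0 g/kg left out 86 genes were called, 12 of the 18 among them. With the T-ALL number as a block 22 of the 30 calls and 13 of the 18 histone calls were kept. Footprints of these 18 were lower for 17, and their TE differences ranged from -0.48 to 0.88 with no called gene. Over the 62 tested members of the histone list the median difference was -0.58 in total RNA, -0.78 in footprints and -0.20 in TE, with 44 of 62 lower in TE. Near-identical histone copies share reads, so single members are uncertain. Hist1h2bp, with 1 and 0 footprint reads without valine and 3 to 13 with valine, had a read ratio of 0.0983 (exact binomial interval 0.00243 to 0.577), and Hist1h4b, with TE values of 1.06 and 1.96 against -0.43 to 0.84, had a difference of 1.27 (SE 0.36). The 12 other genes called in total RNA had TE differences that did not pass the test either. Among them Ccnb2, Cdc20, Kpna2 and Bub3, which act in mitosis or nuclear transport, fell by 1.33, 1.23, 0.83 and 0.65, and Dusp1, an immediate early phosphatase, rose by 1.96. S100a8, one of the neutrophil markers above, rose by 3.57 in total RNA. These 6 genes kept their direction in each alternative that tested them, but all 6 lost the call with the T-ALL 3 library of the valine-free diet left out, with the 4 diets as a factor, against the control diet alone and without the variance trend.

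**Figure D4:**
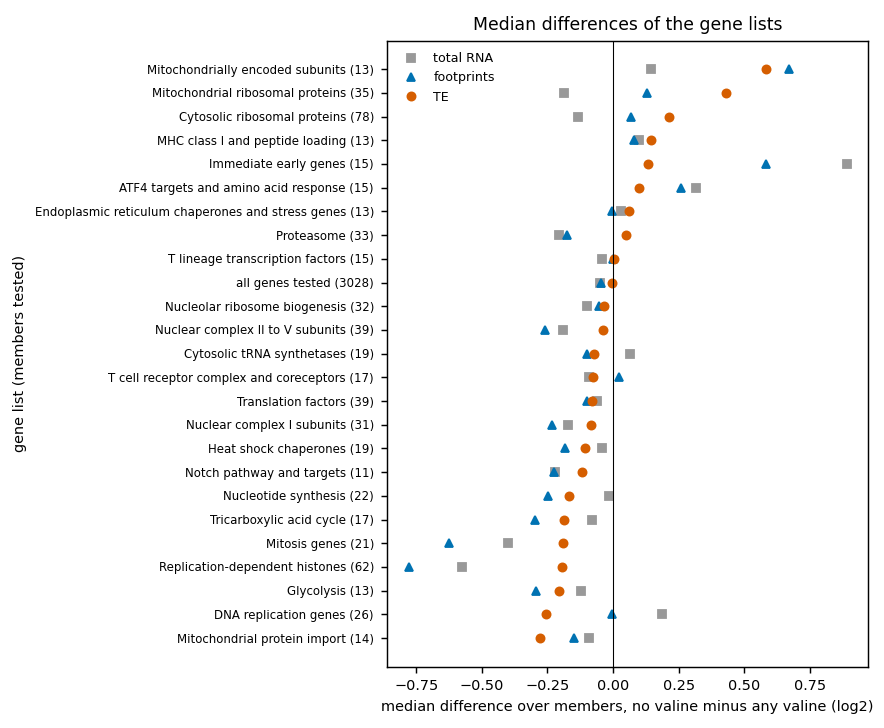
Median difference without valine minus with any valine (log2) over the tested members of each gene list with at least 10 of them, for total RNA, footprints and TE; the number tested stands in brackets. Histones and mitosis genes lie left in both fractions with TE nearer 0, immediate early genes lie right in both, and the mitochondrially encoded subunits lie right in footprints and TE.

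Genes of the leukaemia and of T cells lay on both sides of 0 in TE. Notch1, with 412 and 489 footprint reads without valine, had TE values of 0.90 and 1.07 against 0.94 to 1.37, a difference of -0.17 (SE 0.20, 95% interval -0.61 to 0.27). Whether the transcript of the transgene adds to its reads is not stated. Myc, a Notch target in T-ALL, had TE values of 0.91 and 0.85 against 0.15 to 0.68, a difference of 0.43 (SE 0.22, unadjusted p 0.0742, limma adjusted p 0.993), with -0.54 in total RNA and -0.11 in footprints. Of 17 tested T cell receptor and coreceptor genes 6 were higher and 11 lower. Both pairs without valine were above all others for 4 of the 17 (23.5%, against 2.97% of all genes tested). Lck, the kinase at the coreceptors, was among them, with TE values of -0.67 and -0.65 against -1.32 to -0.90 (difference 0.52, SE 0.21). So was Cd3d, with 0.43 and -0.14 against -0.61 to -0.23 (difference 0.54, SE 0.23). Cd3e, a neighbour of Cd3d in the receptor, had -0.08 (SE 0.19), Zap70, the kinase the receptor recruits, had -0.67 (SE 0.26), and the transcription factor Tcf7 had 0.59 (SE 0.25).

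Psenen (chr7:30561865-30563627), a subunit of gamma-secretase, which cuts Notch receptors, had 0 footprint reads in both libraries without valine and 2, 1, 7, 3, 1 and 2 with valine. Its RNA was also at 4 and 5 reads without valine, so a bound on its fold in TE could not be set above 1.

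No stress or immediate early gene was called in TE. Hspa1a, an inducible heat shock chaperone, had 59 and 77 footprint reads without valine and 1 to 45 with valine; its difference was 3.08 in footprints, 3.36 in total RNA (limma adjusted p 0.255) and -0.28 in TE (SE 0.71). Hspa8, its constitutive relative, had a TE difference of -0.23 (SE 0.23). The 15 tested immediate early genes had a median difference of 0.89 in total RNA, 0.58 in footprints and 0.13 in TE, the last with its sign turned in 8 of 20 alternatives. Fos had 61 and 36 total RNA reads without valine and 2 to 35 with valine, and its TE values of 0.81 and 0.48 lay below the others at 0.98 to 3.42 (difference -1.36, SE 0.58, unadjusted p 0.0391, limma adjusted p 0.993). S100a9 had 51 and 5 footprint reads without valine and 0 or 1 with valine, with a TE difference of 3.81 (SE 2.81). The part of neutrophil RNA in these differences was not tested.

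Since no gene passed the test, the genes with the lowest unadjusted p among those with a difference of at least 1 and groups apart were ranked, 12 in each direction of 38 higher and 48 lower, and 22 of these 24 are described. Bax, which opens the outer mitochondrial membrane in cell death, had 1 and 5 footprint reads without valine and a difference of -1.75 (SE 0.45). Scaf8, which binds RNA polymerase II, had 6 and 3 reads and a difference of -1.76 (SE 0.47), and Gadd45gip1, a protein of the mitochondrial ribosome, had 1 and 1 reads and a read ratio of 0.186 (exact binomial interval 0.0218 to 0.718). Smtn and Lgals7 each had 0 footprint reads in the T-ALL 2 library without valine, with read ratios of 0.287 and 0.357. Eif3i, Mrpl27, Mrpl38, Psenen and Hist1h2bp, described above, also belong to the lower set.

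The higher set holds genes of several kinds. Hbb-bs, a globin chain, had 4 and 9 footprint reads on 4 and 2 total RNA reads without valine, against 9 to 46 on 7 to 171 with valine; its TE difference was 1.90 (SE 0.40, unadjusted p 0.000636, limma adjusted p 0.481). In total RNA the erythroid markers gave 0.280 to 0.284 of every 10000 reads without valine and 0.658 to 4.23 with it, while their footprint shares overlapped, and their part in this value was not tested. Of the 2 erythroid markers tested in TE, 1 was higher and 1 lower without valine, with a median difference of -0.27. Each had an unadjusted limma p under 0.05. Usp1, a deubiquitinase of DNA repair, had 21 and 13 footprint reads against 3 to 16, TE values of -0.14 and -0.74 against -3.13 to -1.22, and a read ratio of 2.85 (exact binomial interval 1.77 to 4.53). Gtpbp1, a GTPase related to elongation factors, had 24 and 18 footprint reads, TE values of 1.29 and 0.93 against -0.41 to 0.47 and a read ratio of 2.13 (1.45 to 3.10). Dcaf8, a substrate receptor of ubiquitin ligases, had a read ratio of 2.12, Tmem176b of 2.28, Trmt2a, a tRNA methyltransferase, of 2.44, and Rab35, a GTPase of membrane traffic, of 3.21. Abhd17a, which removes palmitate from proteins, had 2.98, Ntmt1, a methyltransferase of protein N termini, 3.55, and Psme2b, a copy of a proteasome activator gene, 2.0. Hist1h4b and Rpl7a complete the 12.

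**Figure D5:**
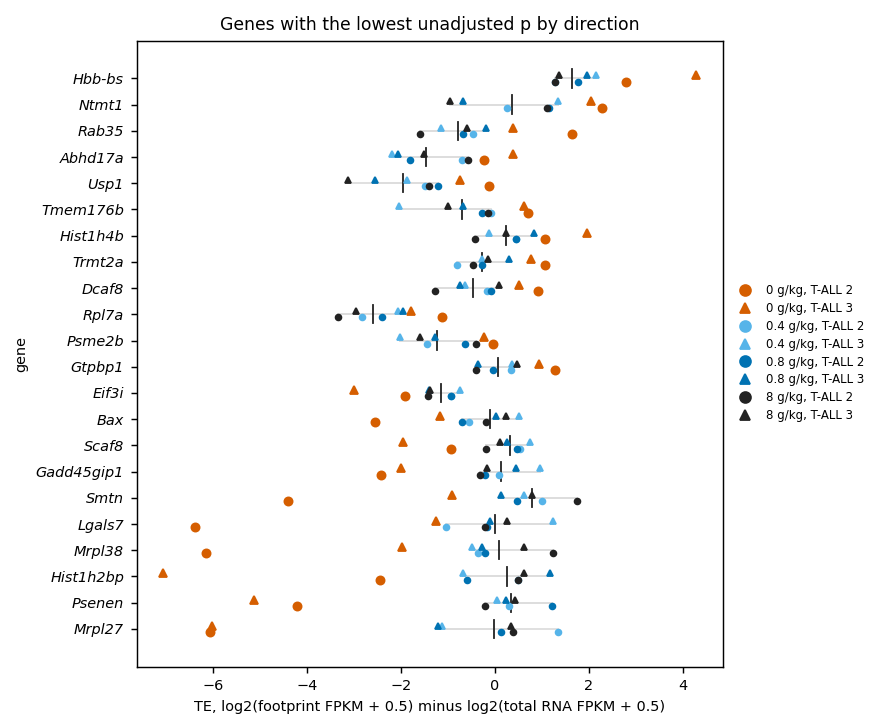
TE of 22 of the 24 genes with the lowest unadjusted p by direction in each of the 8 pairs; orange marks the pairs without valine and the black bar the mean of the 6 pairs with valine. By the rule that chose them, both orange points lie outside the other 6 for each gene; the far-left points of Mrpl27, Psenen, Hist1h2bp, Mrpl38, Lgals7 and Smtn come from libraries with 0 footprint reads.

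Among enzymes that make nucleotides, 9 of 22 tested were higher and 13 lower. Both pairs without valine lay below all others for 3 (13.6%, against 3.93% of all genes tested), Gart, Pfas and Ctps. Gart and Pfas act in purine synthesis and had many reads. Gart had 39 and 30 footprint reads, TE values of 0.36 and 0.10 against 0.56 to 1.11, and a difference of -0.67 (SE 0.24, unadjusted p 0.0169, limma adjusted p 0.993). Pfas had TE values of 0.86 and 1.01 against 1.08 to 2.05 and a difference of -0.61 (SE 0.29), and Ctps, which makes CTP, had -0.95 (SE 0.46). In the proteasome list, with 17 of 33 higher, Psmc4, an ATPase of the regulatory particle, had TE values of -1.16 and -1.25 against -0.71 to 0.08, a difference of -0.95 (SE 0.30, unadjusted p 0.00881, limma adjusted p 0.993). None of the lists held a gene called in TE.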

How the data were processed

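The authors deposited 1 table of FPKM for 12012 genes in 16 libraries, with replicates kept apart. Per the submitters' processing notes the tools were STAR 2.5.0c, Bowtie2 2.3.4, edgeR 3.14.0 and cutadapt 1.18, and the builds GRCm38 and mm10; neither roles nor FPKM formula were given in the sources used. Each of 149988 non-zero values (100%) came within 0.02 of a whole number of reads once length and library factors were removed, which gave read counts. TE, footprints and total RNA were fitted on log2(FPKM + 0.5) by limma 3.58.1 under R 4.3.3 over 8 pairs or libraries, no valine against any valine, with the variance trend on the mean level. Tests were two-sided and adjusted by Benjamini-Hochberg over 3028 genes at 0.05; the scripts were tested on simulated data. Expected footprint reads are a gene's share of total RNA reads times the footprint total. Standard errors come from the moderated variance. Folds on this scale understate changes of genes with FPKM near the added 0.5. Where a library had no footprint reads of a gene, they can instead overstate the change, as for Ndufs7, fitted at -3.67.

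Named genes are those past the test (none here), else up to 12 per direction by unadjusted p with a difference of at least 1 and groups apart, up to 3 per list, and a fixed set; other members of the lists described were named after their values were seen. The members and the 34 lists were chosen with earlier results of these data known. T-ALL numbers were not used as pairs: of 6 correlations between diets of the T-ALL 3 minus T-ALL 2 differences, 1 was over 0.1 for TE, 3 for footprints and 3 for total RNA (-0.11 to 0.45). Valine content of proteins was not analysed here, and neither was Cd79a. Some genes that the rule picks are not reported here.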

Additional observations from a re-analysis of the deposited data

Results flagged for a closer look

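Values that stood far from the other 5 pairs with valine were looked for in the TE of each of the 77 genes named in the text, by Dixon's 95% criterion; about 5% of such groups exceed it by chance. There were 3. The TE of Lck in the T-ALL 2 pair on the control diet was -0.90, where the other 5 pairs lay between -1.32 and -1.20. The TE of Bcat2 in the T-ALL 3 pair at 0.8 g/kg was 1.20 from 11 footprint reads and 13 total RNA reads, where the others lay between 0.00 and 0.40. The TE of mt-Nd3 in the T-ALL 3 pair at 0.4 g/kg was -9.57, from 0 footprint reads and 90 total RNA reads, where the others lay between -2.84 and -2.07.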

How the results depend on the processing

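The count of genes called in TE stayed at 0 in each direction under the alternatives run, apart from the exceptions given here: 2 lower without the variance trend, and, with each pair left out in turn, 0 to 1 higher and 0 to 14 lower. Footprints gave 2 lower with the filter at a mean of 1 FPKM in each fraction, 2 lower without the trend, and 0 to 17 lower with a pair left out. Total RNA gave 1 higher and 13 lower with the filter at 1 FPKM, 2 higher with it at 50 and 20 FPKM, 0 higher and 3 lower with the 4 diets as a factor, 0 and 1 against the control diet alone, 0 and 3 without the trend, and 0 to 7 higher and 4 to 79 lower with a library left out. With the T-ALL number as a replicate block, TE and footprints had 0 called genes and total RNA 5 higher and 19 lower. Of 1494 TE values of single genes under an alternative, 11 came past the threshold, in Mrpl27, Psenen, Hbb-bs, Hist1h2bp, Mrpl38, Smtn, Lgals7 and Ndufs7. A further 28 turned in sign, in 11 genes: Ndufb6 was 0.78 and Slc3a2 -0.079 and Hspa1a 0.23 at equal depth, Slc3a2 -0.00176 by voom on reads, and Eef1a1 -0.091 and Hspa1a 0.44 against the control diet alone. The difference of mt-Nd6 was 0.60 against the control diet alone, 0.064 by voom on reads and 0.59 at equal depth, and that of mt-Atp6 was 0.019 with each pair centred on its median, 0.060 by voom and 0.065 at equal depth. With a pair left out, mt-Nd6 ranged from -1.05 to 0.80, mt-Nd4l from -0.29 to 0.93, mt-Atp6 from -0.36 to 0.30, Ndufb10 ranged from -0.15 to 0.37, Vars from -0.90 to 0.11, Eef2 from -0.26 to 0.14, Slc7a5 from -0.20 to 0.26, Slc3a2 from -0.061 to 0.20 and Hspa1a from -0.49 to 0.13. The causes were not tested. The counts of list members by sign under each alternative were added after seeing the data, as was the search for pyrimidine runs. The median TE difference was 0.47 to 0.75 over the mitochondrially encoded subunits, 0.057 to 0.39 over cytosolic ribosomal proteins and -0.23 to -0.067 over histones. The planned comparison with valine content was not run. Footprint depth limits the text: 7 tested genes had 0 reads in both libraries without valine.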
